A study of Mus musculus with 8 samples.

Results

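The effect of losing miR-21 in irradiated mammary tumors was read from 4 of the 8 arrays of the series, the 2 arrays of irradiated miR-21-/- tumors and the 2 arrays of irradiated miR-21+/+ tumors, which were chosen by the genotype and treatment in their labels. The 4 arrays hold tumors that grew in the mammary fat pad of female mice that carry MMTV-PyMT. In these mice the mammary tumor virus promoter drives the polyoma middle T antigen in mammary epithelium. The miR-21 deletion is present in every cell of the miR-21-/- mice, so tumor cells and host cells both lack it. The labels state a dose of 8 Gy given at a tumor volume of 1000 mm3, with growth until the total volume was 2000 mm3. The methods of the study state another dose and the time of collection is described in more than 1 way, so the time between irradiation and collection is not settled here. The other 4 arrays hold untreated tumors of the same genotypes, 2 arrays each. Ages at collection are not given in the sources used here, and nothing states that the arrays of a group come from separate mice, so p-values measure only the spread between these samples, which may be technical.

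miR-21 is a small RNA that is raised in many solid tumors, breast cancer included. It pairs through its seed, bases 2 to 8, with sites in target messenger RNAs and lowers their level or translation. Among its known targets are inhibitors of growth factor signaling and of proteases and factors that favor cell death, and radiation is a setting in which these roles meet. The RNA that is absent from the miR-21-/- tumors is shown here with the seed in capitals, in the RefSeq entries of mouse assembly GRCm38.p6. Both strands of the hairpin lie on the minus strand of chromosome 11, inside the transcribed region of Vmp1, at chr11:86584120-86584141 for the 5p strand and chr11:86584082-86584103 for the 3p strand.
mmu-miR-21a-5p: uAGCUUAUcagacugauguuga
mmu-miR-21a-3p: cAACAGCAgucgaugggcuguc

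The levels are log2 signals, and a gene's level is the mean of the probe sets listed with that gene alone, for 23152 genes. A log2 difference of 1 is a doubling. The probe set shared by Mir21 and Vmp1 read 2.75 and 3.08 in the irradiated miR-21+/+ arrays and 1.69 and 1.97 in the irradiated miR-21-/- arrays. The order is that of the labels, but the probe set is dim, at percentile 5.99 of all probe sets, and Vmp1 itself read 6.81 and 6.80 against 6.20 and 6.55, so it is a weak check of the genotype. The tissue label was borne out by high luminal keratins in all 4 arrays, with Krt8 at 10.51 and 10.23 in the miR-21+/+ arrays and at 8.51 and 9.35 in the miR-21-/- arrays. Array 1 of the irradiated miR-21-/- tumors stood apart from the others. Its correlations across genes with the other 7 arrays were 0.898 to 0.915, and the mean level of 18 adipocyte markers was 9.94 in it against 4.77 to 5.47 in the other 7. Adipoq, the fat cell hormone, read 9.14 in array 1 and 3.85 in array 2, and Plin1, which coats the lipid droplet, read 10.42 and 5.18. Fibroblast markers moved with it, with a median difference from the miR-21+/+ mean of 2.05 in array 1 and 0.31 in array 2 over 16 genes. In bulk tumor RNA, fewer cells of a type and less RNA per cell cannot be told apart. Gene values and list medians below are therefore given for both miR-21-/- arrays, a list's median in array 1 before that in array 2, and the genes dwelt on are those with both arrays on the same side of both miR-21+/+ arrays. For such a gene the gap is the log2 distance between the nearest arrays of the 2 genotypes.

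Over the 4 arrays, more genes were lower than higher without miR-21. Where the fold change was 2 or more and the unadjusted p was under 0.05, as the study set its thresholds, 307 genes (1.33% of those tested) were higher and 609 (2.63%) were lower in the miR-21-/- arrays. The direction turned when miR-21-/- array 2 was left out, with 1437 higher and 1303 lower genes. At a Benjamini-Hochberg adjusted p under 0.05 over all genes in limma, 17 (0.0734%) were higher and 77 (0.333%) were lower. Below, a gene is said to have risen or fallen where it passed the first of these thresholds, called the fold threshold, and the adjusted p is given for the genes that matter. The miR-21-/- arrays did not overlap with the miR-21+/+ arrays in 9607 genes (41.5%), lying above them in 4379 (18.9%) and below them in 5228 (22.6%). Of these, 38 were higher and 206 were lower with a gap of at least 1. The median difference over all genes was -0.003. The shares of all genes that rose (1.33%), fell (2.63%), lay above (18.9%) and lay below (22.6%) are the background for the list counts below. No gene passed the adjusted threshold in limma on the 4 irradiated arrays alone, where 679 passed the fold threshold, and 0 or 1 passed when any array of the other 3 groups was left out, while 318 passed without irradiated miR-21-/- array 1 and 3709 without array 2. The adjusted calls thus depend on which arrays enter the estimate of the spread.

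The 2 miR-21-/- arrays did not contribute equally. Array 1 lay at least 1 log2 unit above both miR-21+/+ arrays in 1215 genes and below them in 1047, while array 2 did so in 183 and 327. Among the 307 genes that rose, the median difference from the miR-21+/+ mean was 1.85 in array 1 and 0.77 in array 2, and among the 609 that fell it was -1.63 and -1.08. Without array 1, 104 of the 307 and 342 of the 609 still passed the fold threshold. The 94 genes past the adjusted threshold were more even, at medians of 1.90 and 1.57 for higher genes and -1.70 and -1.62 for lower. Their adjusted p counts the difference between the 2 miR-21-/- arrays as spread. Evenness is thus partly the rule that chose them and not a result.

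**Figure D1:**
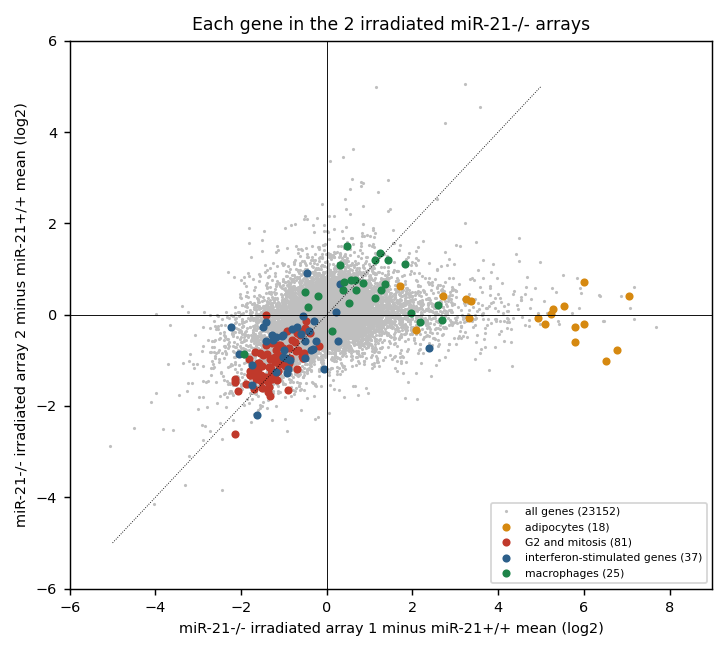
Each point is a gene, at its log2 difference from the mean of the irradiated miR-21+/+ arrays in miR-21-/- array 1 (x axis) and array 2 (y axis), with all genes in grey, 4 gene lists in color and a dotted line where both arrays are equal. Adipocyte markers lie far to the right near the zero of the y axis (medians 5.26 and -0.04), whereas genes of G2 and mitosis lie near the dotted line below zero (-1.27 and -1.06).

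The 25 named genes with the widest gaps upward had gaps of 0.97 to 3.55, and 9 of them passed the adjusted threshold. The 25 with the widest gaps downward had gaps of 1.58 to 3.67, and 19 passed it. They were chosen by these gaps, so that their genotypes do not overlap is the rule and not a result. Array 1 was the farther of the 2 miR-21-/- arrays from the miR-21+/+ arrays in 18 of the 25 upward genes and 18 of the 25 downward genes.

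Among the genes with the widest gaps upward were secreted defense and milk proteins. Saa2, an acute-phase apolipoprotein, read 6.27 and 6.24 in the miR-21+/+ arrays and 9.82 and 10.81 in the miR-21-/- arrays, a 16.7-fold rise (log2 difference 4.06 ± 0.39 (SE), adjusted p = 0.0285, 2 arrays per genotype, limma). The nearest arrays were 3.55 log2 units apart. Csn1s2a, a casein of milk, read 5.43 and 6.92 against 9.40 and 11.22 (4.14 ± 0.62, adjusted p = 0.0506), and a second casein, Csn2, read 10.78 and 10.17 against 11.90 and 12.74 (1.84 ± 0.51, adjusted p = 0.189). C4b, a complement component, read 6.31 and 7.47 against 9.45 and 9.42 (2.55 ± 0.45, adjusted p = 0.0679). Array 2, the array without the adipocyte signal, was the higher of the 2 miR-21-/- arrays for Saa2 and both caseins, and the 2 arrays were level for C4b.

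Regulators and enzymes followed. Meis1, a homeobox transcription factor, read 4.28 and 4.02 in the miR-21+/+ arrays and 6.90 and 8.34 in the miR-21-/- arrays (3.48 ± 0.42, adjusted p = 0.0314), with all 13 of its probe sets higher. Dpyd, the first enzyme of pyrimidine breakdown, read 4.32 and 4.86 against 7.82 and 6.59 (2.62 ± 0.38, adjusted p = 0.0451), and 20 of its probe sets were higher and 1 lower. Mgmt, which removes alkyl groups from guanine in DNA, read 6.29 and 6.0 against 7.36 and 7.41 (1.24 ± 0.17, adjusted p = 0.0389). Neither genotype varied by more than 0.3 between its arrays for Mgmt. Slc16a7, a monocarboxylate transporter, read 4.65 and 5.07 against 7.10 and 6.47 (1.92 ± 0.27, adjusted p = 0.0413). Rbms3, an RNA-binding protein (1.80 ± 0.24, adjusted p = 0.033), Ralgapa2, which inactivates Ral GTPases (1.74 ± 0.24, adjusted p = 0.0423), and Fam125b (1.33 ± 0.17, adjusted p = 0.033) passed the adjusted threshold as well. By its brightest probe set alone, Fam125b differed by -0.01 (adjusted p = 0.992). Several other genes with wide gaps leaned on array 1. Sncg, a synuclein found in fat and nerve, read 5.02 and 5.17 against 10.08 and 6.25, Ghr, the growth hormone receptor, 6.03 and 6.15 against 9.74 and 7.30, and Apoc1, an apolipoprotein, 4.35 and 4.32 against 7.31 and 5.45, all with array 1 far above array 2.

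**Figure D2:**
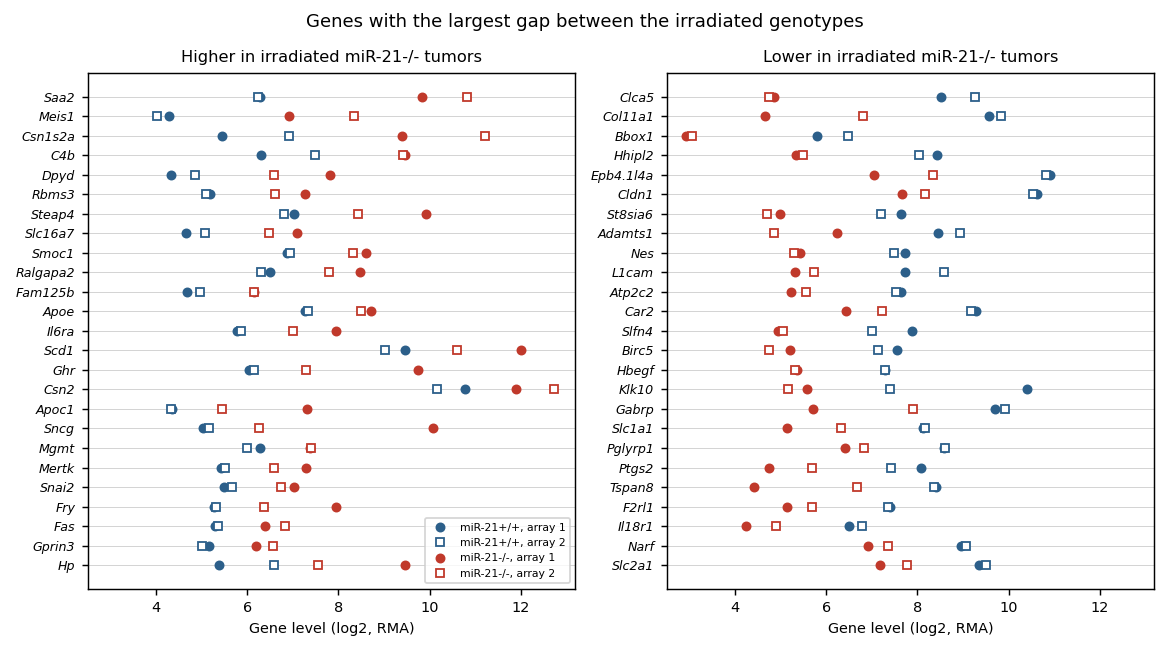
Log2 level of the 25 named genes with the widest gap upward and the 25 with the widest gap downward in the 4 irradiated arrays (circle, array 1; square, array 2; blue, miR-21+/+; red, miR-21-/-). By the rule that chose them no red symbol lies between or across the blue ones, and Saa2 and Clca5 show the widest gaps at 3.55 and 3.67.

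The widest gap downward was that of Clca5, listed as Clca2 in RefSeq, a member of the family first named as calcium-activated chloride channel regulators. It read 8.52 and 9.25 in the miR-21+/+ arrays and 4.85 and 4.75 in the miR-21-/- arrays, a 17.0-fold fall (log2 difference -4.09 ± 0.29, adjusted p = 0.0171). All 17 of its probe sets were lower and the miR-21-/- arrays were 0.1 apart. Bbox1, the last enzyme of carnitine synthesis, read 5.79 and 6.48 against 2.92 and 3.04 (-3.15 ± 0.26, adjusted p = 0.0171), and Hhipl2, a secreted protein resembling the hedgehog-interacting protein, read 8.43 and 8.03 against 5.34 and 5.49 (-2.81 ± 0.23, adjusted p = 0.0171). Nes, the intermediate filament protein nestin, read 7.72 and 7.49 against 5.42 and 5.29 (-2.25 ± 0.17, adjusted p = 0.0171). These 4 genes had the lowest adjusted p of those named, and in none of them did array 1 and array 2 differ by more than 0.2. Col11a1, a fibrillar collagen, was less even, at 9.56 and 9.83 against 4.64 and 6.81 (-3.97 ± 0.59, adjusted p = 0.0481). For Epb4.1l4a, a FERM domain protein at the membrane, the arrays read 10.91 and 10.82 against 7.04 and 8.35 (-3.17 ± 0.38, adjusted p = 0.0314).

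Further genes with wide downward gaps had varied roles. Adamts1, a secreted metalloprotease, read 8.46 and 8.93 against 6.24 and 4.86 (-3.15 ± 0.43, adjusted p = 0.0376), here with array 2 the lower. F2rl1, a receptor activated by trypsin-like proteases, read 7.40 and 7.35 against 5.14 and 5.70 (-1.96 ± 0.27, adjusted p = 0.0413). Il18r1, a subunit of the interleukin 18 receptor, read 6.50 and 6.79 against 4.24 and 4.90 (-2.08 ± 0.29, adjusted p = 0.0423). In all 3 the genotypes lay over 1.5 apart. Slc1a1, a glutamate transporter, read 8.12 and 8.16 against 5.15 and 6.33 (-2.40 ± 0.35, adjusted p = 0.0451), and Atp2c2, a calcium pump of the secretory pathway, read 7.64 and 7.53 against 5.23 and 5.56 (-2.19 ± 0.29, adjusted p = 0.033). Ptgs2, the inducible cyclooxygenase, read 8.08 and 7.42 against 4.74 and 5.68 (-2.54 ± 0.40, adjusted p = 0.0532). Klk10, a secreted serine protease, had the largest spread among the miR-21+/+ arrays, at 10.40 and 7.40 against 5.58 and 5.16 (adjusted p = 0.128).

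Cell division genes were the most uniform group to be lower. Their promoters often hold 2 short elements, the cell cycle homology region (CHR, TTTGAA), bound by the MuvB complex that represses these genes in resting cells and activates them before mitosis, and the CCAAT box, bound by NF-Y. The members shown, which both fell, are the spindle motor Kif11 and the midzone protein Prc1. They carry both elements within the 150 bases before their start sites, printed 5′ to 3′ in the gene's direction with the elements of either strand in capitals (RefSeq, GRCm38.p6). Kif11 is at chr19:37376232-37376381 and Prc1 at chr7:80294326-80294475, both on the plus strand.
Kif11: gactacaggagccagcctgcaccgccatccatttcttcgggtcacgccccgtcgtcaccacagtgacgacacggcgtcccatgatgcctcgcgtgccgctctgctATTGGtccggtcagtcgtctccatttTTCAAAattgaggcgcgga
Prc1: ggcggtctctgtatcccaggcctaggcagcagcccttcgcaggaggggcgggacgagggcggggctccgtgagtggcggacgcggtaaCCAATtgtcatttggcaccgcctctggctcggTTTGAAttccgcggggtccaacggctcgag

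The CHR letters were found on either strand in 47 of the 70 windows of G2 and mitosis genes (67.1%, 64 genes with a window), against 17.9% of all 32851 windows, where a window runs from 250 bases before a start site to 50 after it. The CCAAT letters were found in 72.9% of the mitosis windows and 37.4% of all windows. Windows of S phase genes held CHR in 15.4% and CCAAT in 61.5%. A match is a description of the letters and not of binding. The printed stretches are examples that hold the letters, and that of Prc1 does not precede the gene's outermost start site.

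Of 81 measured genes of G2 and mitosis, 53 fell, 9 of them past the adjusted threshold, and none rose. The miR-21-/- arrays lay below the miR-21+/+ arrays in 78 (all genes, 22.6%) and above them in 0, and the median difference was -1.16 (all genes, -0.003). Both arrays contributed, with medians of -1.27 in array 1 and -1.06 in array 2. Without array 1, 45 of the 81 still fell, and without array 2, 56 did. The mean level of the list was 6.52 and 6.45 in the irradiated miR-21+/+ arrays. It was 5.26 and 5.44 in the irradiated miR-21-/- arrays, the lowest 2 of the 8 arrays. In 73 of the 81 genes both irradiated miR-21-/- arrays lay below all the other arrays, as they did in 1877 of all 23152 genes.

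By name, Birc5, the survivin gene, whose product serves the chromosomal passenger complex and inhibits cell death, read 7.56 and 7.14 against 5.21 and 4.73 (-2.38 ± 0.30, adjusted p = 0.0319). Prc1 read 7.96 and 7.61 against 5.71 and 6.12 (-1.87 ± 0.23, adjusted p = 0.0319), and Kif11 read 7.06 and 7.42 against 5.36 and 5.71 (-1.70 ± 0.21, adjusted p = 0.0319). The genotypes were over 1.3 apart in each. Ect2, the exchange factor that sets the cleavage furrow, read 7.39 and 7.65 against 5.82 and 5.89 (-1.67 ± 0.20, adjusted p = 0.0314), and Bub1, a spindle checkpoint kinase, read 5.51 and 5.54 against 3.98 and 4.08 (-1.50 ± 0.22, adjusted p = 0.0456). Mki67, the proliferation marker Ki-67, read 8.49 and 8.92 against 7.33 and 7.01 and Cdk1, the mitotic kinase, 7.16 and 6.75 against 5.76 and 5.68. These last 2 fell at the fold threshold with adjusted p = 0.0565 and 0.0541.

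Genes of DNA replication and S phase were lower by less. Of 55, 3 fell and none rose, and the miR-21-/- arrays lay below in 43 and above in 0 (all genes, 22.6% and 18.9%). The median difference was -0.48 (-0.53 and -0.45 by array). Tk1, thymidine kinase, read 7.50 and 7.67 against 5.53 and 6.16 (-1.74 ± 0.26, adjusted p = 0.0459) and was the list's only gene past the adjusted threshold. Dtl, which marks replication factors for destruction, differed by -1.33 ± 0.24 (adjusted p = 0.0739) and Chaf1b, a subunit of the chromatin assembly factor, by -1.12 ± 0.26 (adjusted p = 0.138). Mcm5, part of the replicative helicase, read 6.89 and 6.70 against 5.69 and 6.02 without passing either threshold. Of 45 DNA repair genes, 24 lay below and 1 above (all genes, 22.6% and 18.9%), with a median of -0.49. The median was -0.65 in array 1 and -0.18 in array 2, -0.28 without miR-21+/+ array 2 and -0.006 by the brightest probe sets. Brip1, a helicase that works with BRCA1, was the member that fell (-1.44 ± 0.36, adjusted p = 0.153). It lies on chromosome 11 close to the miR-21 locus, so position and miR-21 genotype cannot be told apart for it. By its brightest probe set Brip1 differed by 0.34 (adjusted p = 0.706).

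**Figure D3:**
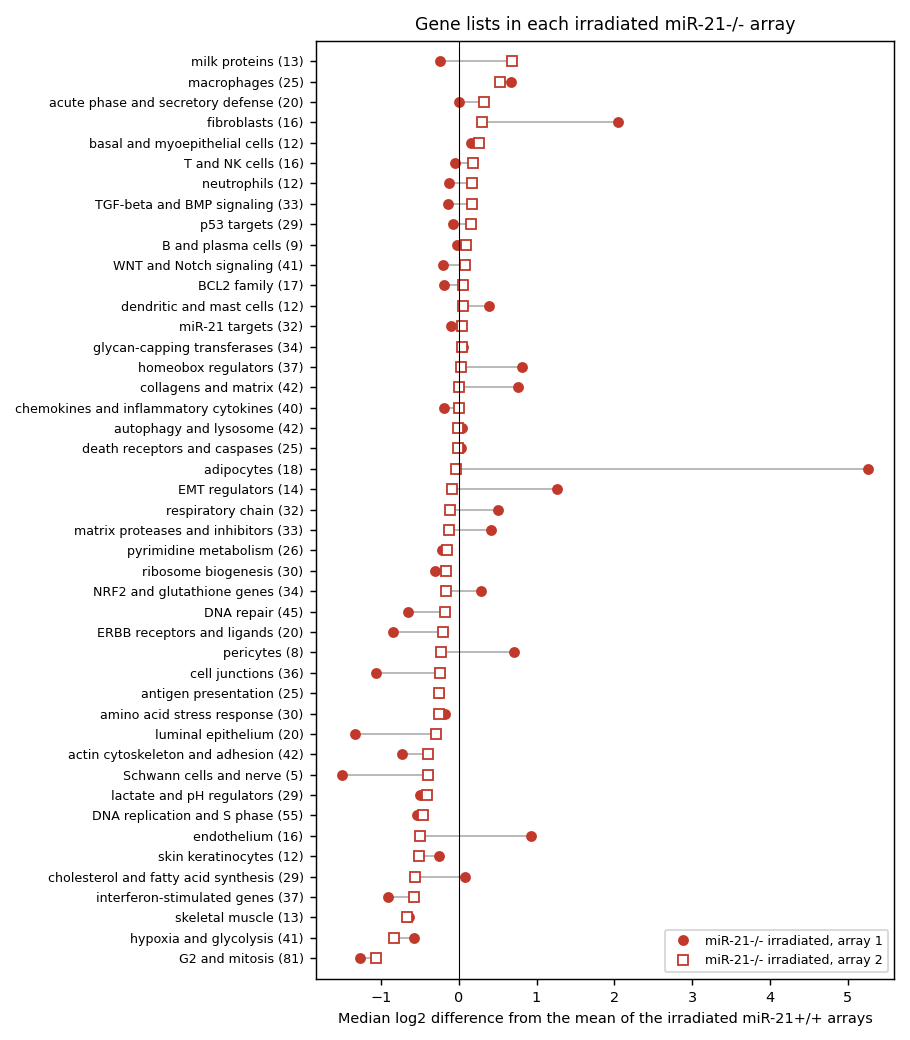
Median log2 difference of each of 45 gene lists from the mean of the irradiated miR-21+/+ arrays, in miR-21-/- array 1 and in array 2, with the number of measured genes beside each name. Adipocytes and fibroblasts stand high in array 1 (5.26 and 2.05) and not in array 2 (-0.04 and 0.31), whereas G2 and mitosis and the hypoxia list are low in both (-1.27 and -1.06, -0.58 and -0.83).

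Genes of hypoxia and glycolysis were lower too. The hypoxia-inducible factors bind a short element (HRE, ACGTG) near genes for glucose uptake, glycolysis and lactate export. The 150 bases before the start sites of 3 members that fell are shown with these letters in capitals, on either strand and so merged where they overlap, all on the plus strand of GRCm38.p6: Slc2a1, the glucose transporter GLUT1, at chr4:119108595-119108744, Slc16a3, the lactate exporter MCT4, at chr11:120948917-120949066, and Ldha, lactate dehydrogenase, at chr7:46845654-46845803.
Slc2a1: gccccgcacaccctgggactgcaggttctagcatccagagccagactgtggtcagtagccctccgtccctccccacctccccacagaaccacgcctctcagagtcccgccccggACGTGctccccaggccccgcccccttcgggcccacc
Slc16a3: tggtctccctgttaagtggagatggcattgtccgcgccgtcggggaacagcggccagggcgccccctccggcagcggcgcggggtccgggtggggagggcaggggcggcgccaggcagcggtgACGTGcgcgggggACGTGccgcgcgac
Ldha: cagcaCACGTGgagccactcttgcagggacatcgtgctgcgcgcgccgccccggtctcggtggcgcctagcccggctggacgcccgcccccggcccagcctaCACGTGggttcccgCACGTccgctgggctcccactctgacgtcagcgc

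The printed stretches are examples that hold the letters. For Ldha and Slc16a3 the start site used lies inside the gene, past its outermost start. The letters were found in 25 of 45 windows of hypoxia genes (55.6%, 34 genes), against 19.6% of all windows and 22.9% of the mitosis windows. Of 41 genes of hypoxia and glycolysis, 17 fell, 3 past the adjusted threshold, and 1 rose. The miR-21-/- arrays lay below in 28 and above in 1 (all genes, 22.6% and 18.9%), with a median difference of -0.73. Array 2 was the lower here, at a median of -0.83 against -0.58 in array 1. Array 2 lay below both miR-21+/+ arrays in 39 of the 41 genes and array 1 in 28. Over all 23152 genes, array 2 did so in 8666 and array 1 in 9877. Slc2a1 read 9.34 and 9.51 against 7.17 and 7.76 (-1.96 ± 0.24, adjusted p = 0.0314) and Slc16a3 6.74 and 7.02 against 5.23 and 5.31 (-1.61 ± 0.19, adjusted p = 0.0314). Egln3, the oxygen-sensing prolyl hydroxylase that hypoxia-inducible factors themselves induce, read 9.14 and 9.30 against 7.67 and 7.17 (-1.80 ± 0.22, adjusted p = 0.0314). The genotypes were over 1.4 apart in all 3. Ldha read 8.33 and 8.68 against 6.68 and 7.18 (-1.58 ± 0.25, adjusted p = 0.053) and Pgk1, phosphoglycerate kinase, 10.17 and 10.65 against 9.14 and 8.66 (-1.51 ± 0.24, adjusted p = 0.0538). Vegfa, the vessel growth factor, showed the difference between the miR-21-/- arrays, at 9.52 and 9.56 against 9.26 in array 1 and 7.25 in array 2. The member that rose was Angptl4, an inhibitor of lipoprotein lipase that fat cells also express, by 2.26.

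Of 29 regulators of lactate and pH, 10 fell and 2 rose, 4 and 1 of them past the adjusted threshold, with a median of -0.51 (-0.50 and -0.41 in the 2 arrays, -0.80 among genes above the median level), Clca5, Slc16a3 and Slc16a7 counted among them. Lactate carriers moved in both directions, since Slc16a3 fell and Slc16a7 rose. Car2, a cytosolic carbonic anhydrase, read 9.29 and 9.17 against 6.43 and 7.22 (-2.41 ± 0.30, adjusted p = 0.0319). Slc5a8, a sodium-coupled monocarboxylate carrier, read 10.14 and 10.49 against 6.86 and 8.56 (-2.60 ± 0.48, adjusted p = 0.0749). Of 32 genes of the mitochondrial respiratory chain, none passed the fold threshold, and their median was 0.18 (0.50 in array 1 and -0.11 in array 2).

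Interferon-stimulated genes were lower by about as much as the hypoxia list, with fewer members past the fold threshold. Their promoters carry the interferon-stimulated response element, searched as GAAA, any 2 bases and GAAA again on either strand and shown in capitals in the 150 bases before the start sites of Rsad2, the antiviral enzyme viperin (chr12:26456453-26456602, minus strand), and Ifit1, which binds viral RNA (chr19:34640739-34640888, plus strand), both in GRCm38.p6 and in the gene's direction.
Rsad2: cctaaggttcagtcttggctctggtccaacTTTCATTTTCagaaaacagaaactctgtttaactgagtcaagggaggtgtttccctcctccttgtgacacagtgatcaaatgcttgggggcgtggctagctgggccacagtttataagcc
Ifit1: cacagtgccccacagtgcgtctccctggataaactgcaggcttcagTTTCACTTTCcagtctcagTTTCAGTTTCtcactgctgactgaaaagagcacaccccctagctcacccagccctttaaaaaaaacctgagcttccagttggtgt

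The printed stretches are examples that hold the element. It was found in 16 of 32 windows of these genes (27 genes) and in 3.4% of all windows. Of 37 measured interferon-stimulated genes, 4 fell and none rose (all genes, 2.63% and 1.33%). The miR-21-/- arrays lay below in 28 and above in 1 (all genes, 22.6% and 18.9%). The median difference was -0.75 (-0.90 in array 1, -0.57 in array 2). Rsad2 read 7.74 and 8.09 against 6.27 and 5.71 (-1.92 ± 0.57, adjusted p = 0.215), Usp18, which removes ISG15 from proteins, 8.68 and 9.22 against 7.20 and 7.42 (-1.64 ± 0.62, adjusted p = 0.311), and Cmpk2, a mitochondrial nucleotide kinase, 7.87 and 8.25 against 6.86 and 6.81 (-1.22 ± 0.50, adjusted p = 0.346). The genotypes were at least 1 apart in these 3, but none passed the adjusted threshold. The untreated miR-21+/+ arrays, which share the fit and its standard errors, differed from each other: the mean level of the list was 6.36 and 8.04 in them, against 7.49 and 7.79 in the irradiated miR-21+/+ arrays and 6.86 and 7.03 in the irradiated miR-21-/- arrays. Ifit1 itself read 9.03 and 9.74 against 7.64 and 8.27 and passed neither threshold. Of 25 antigen presentation genes, 11 lay below and 3 above, and none passed the fold threshold (median -0.28, and -0.26 and -0.25 by array). Of 40 chemokines and inflammatory cytokines 2 rose, the alarmin Il33 (5.13 and 6.05 against 6.79 and 8.29) and Cxcl17 (4.95 and 4.48 against 5.34 and 6.09), both higher in array 2, and the list's median was -0.06 (-0.18 and -0.001 by array).

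**Figure D4:**
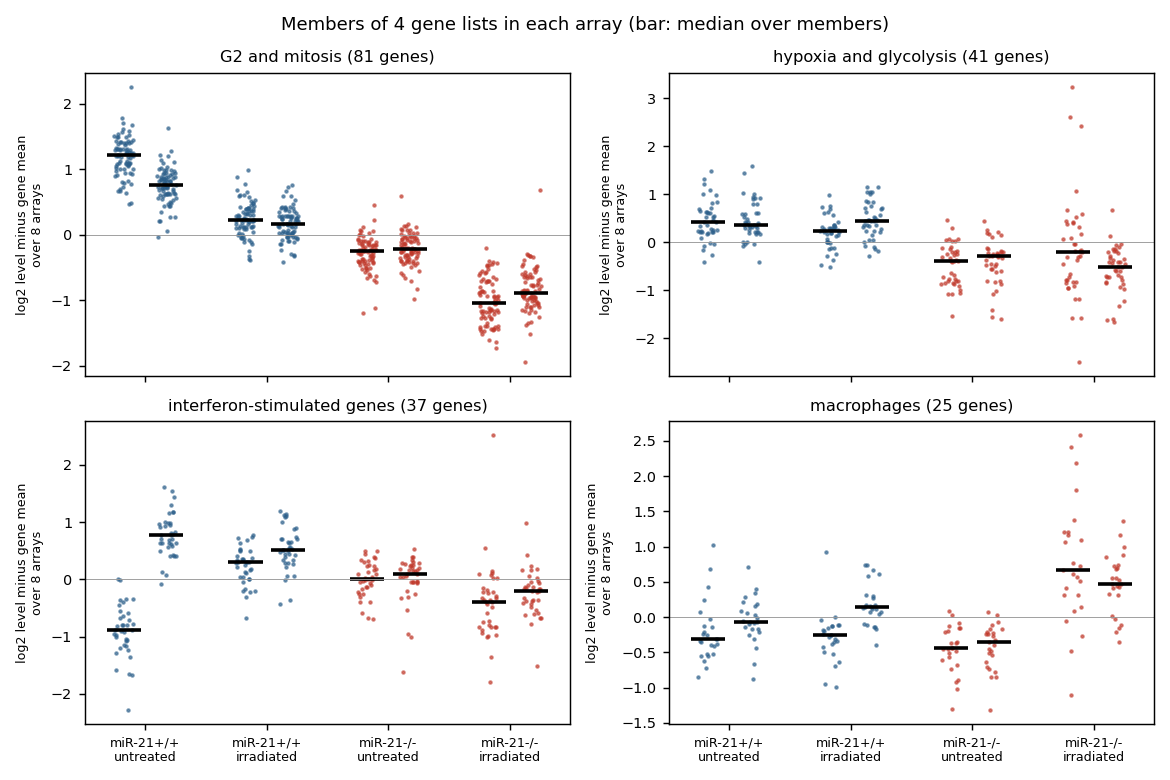
Log2 level of each member minus that gene's mean over the 8 arrays, for G2 and mitosis, hypoxia and glycolysis, interferon-stimulated genes and macrophages, with a bar at the median of each array. Mitosis genes are lowest in the 2 irradiated miR-21-/- arrays, and interferon-stimulated genes separate the 2 untreated miR-21+/+ arrays (list means 6.36 and 8.04).

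Macrophage genes were higher in both miR-21-/- arrays. Of 25 measured, 5 rose, 1 past the adjusted threshold, and 1 fell, the miR-21-/- arrays lay above in 16 (all genes, 18.9%) and below in 1, and the median was 0.75 (0.67 in array 1, 0.53 in array 2). Apoe, the lipid carrier that tumor macrophages secrete, read 7.26 and 7.34 against 8.72 and 8.50 (1.31 ± 0.17, adjusted p = 0.033). Cd68, the lysosomal marker, read 7.43 and 8.12 against 9.02 and 9.12 (1.29 ± 0.32, adjusted p = 0.154), and Mertk, a receptor for the engulfment of apoptotic cells, 5.42 and 5.51 against 7.28 and 6.58 (1.47 ± 0.28, adjusted p = 0.0833). The receptor Csf1r, on which macrophages depend, read 6.07 and 6.40 against 7.59 and 6.92, and lysozyme, Lyz2, read 6.52 and 7.58 against 8.18 and 8.25. The member that fell was Cd14, the coreceptor for lipopolysaccharide, at 9.60 and 9.40 against 7.57 and 8.63 (-1.40 ± 0.35, adjusted p = 0.161). Mrc1, the mannose receptor of resident macrophages, was high in array 1 alone, at 4.95 and 6.64 against 8.48 and 5.69. Without array 1, 6 of the 25 rose. In array 2, whose adipocyte markers (list mean 5.11) were within the range of the miR-21+/+ arrays, Cd68 and Lyz2 were as high as in array 1 and Apoe nearly so.

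None of the other cell types had a marker past the adjusted threshold. Of 18 adipocyte markers 3 rose and 8 lay above (all genes, 1.33% and 18.9%). Their median of 2.61 was 5.26 in array 1 and -0.04 in array 2. Of 16 fibroblast markers 3 rose and 7 lay above (median 1.29). Lpl, lipoprotein lipase, read 4.03 and 5.12 against 10.59 and 5.30, so its rise rested on array 1. Of 16 endothelial markers, 1 fell, and their median was 0.93 in array 1 and -0.49 in array 2. No marker of T and NK cells (16 genes, median 0.07), B and plasma cells (9, 0.04), dendritic and mast cells (12, 0.37), pericytes (8, 0.26) or skin keratinocytes (12, -0.34) passed the fold threshold. By array, these medians were -0.05 and 0.18, -0.02 and 0.10, 0.39 and 0.05, 0.71 and -0.23, and -0.25 and -0.51. Of 12 neutrophil genes, Ltf, lactoferrin, which mammary epithelium also makes, fell (11.59 and 11.21 against 8.85 and 10.59), and the median was 0.03 (-0.13 and 0.18 by array). Of 13 skeletal muscle genes 1 fell, Myh4, which was raised in miR-21+/+ array 2 alone (3.78 and 6.0 against 3.14 and 3.27), and the list's median of -0.67 was 0.03 without that array. Of 5 markers of Schwann cells and nerve 3 fell (all genes, 2.63%), with a median of -1.21 (-1.49 and -0.39 by array, -0.52 among genes above the median level). Among them Cdh19, a cadherin, read 8.18 and 8.37 against 5.01 and 6.61 (-2.47 ± 0.49, adjusted p = 0.092) and S100b, a calcium-binding protein, 5.62 and 6.03 against 4.34 and 3.92 (-1.70 ± 0.29, adjusted p = 0.0617).

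Acute-phase and milk genes leaned upward in array 2, the array without the adipocyte signal. Of 20 acute-phase and secretory defense genes, 6 rose and 1 fell, 2 of the 6 past the adjusted threshold, with a median of 0.25. Array 2 lay above both miR-21+/+ arrays in 15 and below them in 2 (median 0.33), and array 1 in 9 and 8 (median 0.01). Over all 23152 genes, array 2 lay above in 8618 and below in 8666, and array 1 in 8621 and 9877. Besides Saa2, Defb7, a beta-defensin, read 3.44 and 3.42 against 5.35 and 4.77 (1.63 ± 0.21, adjusted p = 0.033), at the dim end of the scale. Hp, haptoglobin, read 5.37 and 6.58 against 9.46 and 7.56 (2.53 ± 0.63, adjusted p = 0.156), with array 1 the higher, and fat tissue also expresses it. Saa3 did not separate the genotypes, at 5.70 and 6.30 against 6.03 and 6.34. Of 13 milk protein genes 3 rose and 2 fell, with a median of 0.12. Array 2 lay above in 9 and below in 3 (median 0.68), array 1 above in 3 and below in 8 (median -0.24), and without array 1, 6 rose and 1 fell. Glycam1 read 5.22 and 5.56 against 6.53 and 10.37, raised most in array 2. Muc15, a milk fat globule mucin, read 10.68 and 10.75 against 8.48 and 9.64 and Lalba, a subunit of lactose synthase, 11.09 and 11.36 against 9.39 and 10.77. In untreated tumors the milk list was higher without miR-21, at a median of 1.27, with 11 of 13 genes above and 0 below. The acute-phase list was at -0.14 there, with 6 above and 7 below.

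Some genes of epithelial junctions, adhesion and growth factor signaling fell, mostly further in array 1. Of 36 cell junction genes 9 fell and none rose, with a median of -0.59 that was -1.06 in array 1 and -0.23 in array 2. Without array 1, 2 fell. Cldn1, a claudin of tight junctions, was low in both arrays: it read 10.63 and 10.53 against 7.67 and 8.16, a 6.35-fold fall (-2.67 ± 0.24, adjusted p = 0.0218). Cldn4 read 9.06 and 8.92 against 7.38 and 7.79 (-1.40 ± 0.29, adjusted p = 0.102), and Ocln, occludin, 7.64 and 7.65 against 5.75 and 6.97 (-1.28 ± 0.36, adjusted p = 0.194). Of 20 luminal markers 7 fell (4 without array 1) and 1, the estrogen receptor Esr1, rose, with medians of -1.33 in array 1 and -0.29 in array 2. Epcam, the epithelial surface marker, read 9.86 and 9.76 against 8.16 and 9.66, with array 2 a little below the miR-21+/+ arrays and array 1 far below. Krt18 read 10.40 and 10.09 against 8.37 and 9.20 and Kit, the receptor of luminal progenitors, 10.09 and 9.94 against 6.97 and 8.92. Luminal markers were thus lower mainly in array 1, and their part in the falls of the junction list was not tested. Of 12 basal and myoepithelial genes, 1 rose, Krt15, chiefly in array 2 (3.69 and 3.39 against 3.93 and 7.01). The list's median was 0.49 (0.16 and 0.26 by array, 0.03 without miR-21+/+ array 2).

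Among 42 genes of the actin cytoskeleton and adhesion, 9 fell, 3 past the adjusted threshold, and none rose (median -0.46, and -0.73 and -0.39 by array). Tagln2, which stabilizes actin filaments, read 8.99 and 9.07 against 7.56 and 7.37 (-1.56 ± 0.16, adjusted p = 0.0314). Itgb4, the integrin of hemidesmosomes, read 9.14 and 8.81 against 6.08 and 7.52 (-2.18 ± 0.42, adjusted p = 0.0833). L1cam, a neural adhesion molecule, read 7.74 and 8.57 against 5.31 and 5.72 (-2.64 ± 0.29, adjusted p = 0.0314), and Flna, which crosslinks actin, 10.08 and 10.68 against 8.00 and 8.67 (-2.05 ± 0.30, adjusted p = 0.0451). L1cam and Flna lie near each other on the X chromosome, in a stretch of 56 genes from Nsdhl to Dkc1 that was noticed after its values were seen. Of its 24 genes with a mean level of at least 6, 22 were below in the miR-21-/- arrays and 2 above (all genes, 22.6% and 18.9%). The median level of the 24 was 7.93 and 8.62 in the irradiated miR-21+/+ arrays and 6.93 and 7.07 in the irradiated miR-21-/- arrays. It was 7.28 to 7.40 in the 4 untreated arrays. In 21 of the 24 the highest of the 8 arrays was irradiated miR-21+/+ array 2, so the direction of L1cam, Flna, Nsdhl and Dkc1 goes with that array as well as with genotype.

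Of 20 ERBB receptors, ligands and adaptors 5 fell, 2 past the adjusted threshold, and none rose. Their median was -0.64, at -0.84 in array 1 and -0.21 in array 2 and -0.23 by the brightest probe sets, and without array 1, 3 fell. Hbegf, a ligand of the epidermal growth factor receptor, read 7.28 and 7.30 against 5.36 and 5.32 (-1.95 ± 0.24, adjusted p = 0.0319), with both genotypes nearly the same in their 2 arrays. Grb2, the adaptor that links receptors to Ras, read 8.48 and 8.62 against 7.45 and 7.43 (-1.11 ± 0.16, adjusted p = 0.0451). Tgfa, another ligand, read 6.25 and 6.50 against 5.20 and 5.25 (-1.15 ± 0.20, adjusted p = 0.0714, but 0.07 by its brightest probe set). Of the receptors, Erbb3 read 9.20 and 9.27 against 6.66 and 8.39, and Egfr overlapped between genotypes at 8.09 and 7.91 against 7.79 and 8.20.

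Grb2, Birc5, Itgb4, Narf, Tk1, Slc16a3, Pycr1, Nt5c and St6galnac1 share a position, the end of chromosome 11 distal to the miR-21 locus. Of 205 measured genes there, from Cpsf4l to B3gntl1, 143 were below in the irradiated miR-21-/- arrays (all genes, 22.6%), 57 fell and 19 passed the adjusted threshold as lower, with a median of -0.69. Without these 205 genes, 52 genes passed the adjusted threshold and 857 the fold threshold. Narf, a nuclear protein that binds prelamin A, read 8.95 and 9.07 against 6.92 and 7.36 (-1.86 ± 0.20, adjusted p = 0.0314), and St6galnac1, a sialyltransferase, went the other way at 4.13 and 4.37 against 5.05 and 7.07. Position and miR-21 genotype cannot be told apart for these genes.

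Cell death genes passed the fold threshold in few members. Of 25 death receptors and caspases 1 rose and 1 fell, with a median of -0.05 (0.03 and -0.01 by array). The miR-21-/- arrays lay above in 6 and below in 4 (all genes, 18.9% and 22.6%). Fas, the receptor that starts the extrinsic death pathway, read 5.29 and 5.37 against 6.39 and 6.83 (1.29 ± 0.22, adjusted p = 0.066), with all 11 of its probe sets higher and the nearest arrays 1.03 apart. Mlkl, the effector of necroptosis, read 7.83 and 7.98 against 6.57 and 6.61 (-1.31 ± 0.20, adjusted p = 0.0506). Fasl, the ligand of Fas, read 3.96 and 4.20 against 4.16 and 4.12, and Casp8, the initiator caspase, 7.40 and 7.87 against 7.75 and 7.41, both with overlapping genotypes. None of 17 genes of the BCL2 family passed the fold threshold (median 0.07, and -0.19 and 0.06 by array), and 2 lay above and 4 below. Of 29 targets of p53, 2 rose, Fas and Ptprv (5.20 and 4.34 against 6.63 and 5.99), and none fell. Of the 29, 10 lay above and 1 below (all genes, 18.9% and 22.6%), with a median of 0.04 (-0.07 and 0.16 by array). The p53 targets best known after irradiation overlapped or nearly so: Cdkn1a, the p21 inhibitor, read 8.83 and 8.53 against 8.12 and 8.77, Mdm2, which degrades p53, 7.96 and 7.83 against 7.52 and 8.05, and Ccng1, cyclin G1, 9.72 and 9.72 against 10.20 and 9.89.

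Known miR-21 targets were not shifted as a list. Of 32 measured, none rose and 1 fell, and 7 lay above and 8 below (all genes, 18.9% and 22.6%). The median was -0.09 (-0.11 and 0.05 by array). Pdcd4, a translation inhibitor among the best studied targets, read 8.61 and 9.20 in the miR-21+/+ arrays and 9.70 and 9.60 in the miR-21-/- arrays (0.75 ± 0.27, adjusted p = 0.297), with all 13 of its probe sets higher and a gap of 0.40. The inhibitors of receptor tyrosine kinase signaling Spry1 and Spry2 were on the other side, at 6.44 and 6.53 against 6.19 and 6.0 and at 8.26 and 8.26 against 7.65 and 7.95. Reck, which restrains matrix proteases, read 6.19 and 6.26 against 7.0 and 6.10, and Timp3, an inhibitor of metalloproteases, 7.03 and 7.01 against 7.67 and 6.49, both spanning the miR-21+/+ arrays. The member that fell was Serpinb5, the epithelial serpin maspin, at 9.27 and 9.33 against 6.10 and 8.43 (-2.04 ± 0.65, adjusted p = 0.24). Arrays measure RNA level, so a change of translation would not be seen.

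Matrix and signaling lists held genes in both directions. Of 42 collagen and matrix genes 2 rose and 4 fell (median 0.24, and 0.77 and 0.01 by array), among them Thbs1, thrombospondin 1, at 10.12 and 10.38 against 8.79 and 8.77 (-1.46 ± 0.30, adjusted p = 0.102), and Tnc, tenascin C, at 8.44 and 8.04 against 4.87 and 7.18. Of 33 matrix proteases and inhibitors 3 rose and 2 fell (median 0.30, and 0.42 and -0.13 by array), with Mmp2, a gelatinase of stromal cells, at 7.51 and 7.31 against 9.80 and 8.08. Among 33 genes of TGF-beta and BMP signaling 3 rose and 5 fell (median 0.01, and -0.14 and 0.17 by array). Ctgf, a matricellular target of the pathway, read 7.47 and 7.30 against 6.07 and 6.43 (-1.14 ± 0.27, adjusted p = 0.145), Inhba, an activin subunit, 5.94 and 5.49 against 4.77 and 3.17, and Tgfbr3, the coreceptor betaglycan, 6.33 and 6.03 against 8.34 and 7.08. In 41 WNT and Notch genes 1 rose, Axin2, and 3 fell, Lgr4, Sfrp1 and Hey1 (median -0.11, and -0.20 and 0.08 by array). Among 37 homeobox regulators 2 rose and 1 fell, with a median of 0.56 that was 0.81 in array 1 and 0.02 in array 2 and that turned to -0.44 among genes above the median level. Hoxc6 was raised in array 1 alone (4.07 and 3.71 against 7.51 and 4.39), unlike Meis1. Of 14 EMT regulators 2 rose and none fell, with a median of 0.54 that was 1.26 in array 1 and -0.08 in array 2, so the list's shift was seen only in array 1. Snai2 was raised in both arrays, at 5.50 and 5.67 against 7.02 and 6.73 (1.30 ± 0.25, adjusted p = 0.0892), and Zeb2 mainly in array 1, at 5.32 and 5.42 against 7.74 and 5.71.

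Metabolic lists passed the threshold in few members. Of 29 genes of cholesterol and fatty acid synthesis, Scd1, the stearoyl-CoA desaturase, rose (9.47 and 9.01 against 12.0 and 10.61) and Sqle, squalene epoxidase, fell (7.31 and 7.37 against 5.90 and 6.33, -1.23 ± 0.20, adjusted p = 0.0582), as did Nsdhl. The median of the list was -0.11, at 0.08 in array 1 and -0.56 in array 2. Array 2 lay below both miR-21+/+ arrays in 24 of the 29 (all 23152 genes, 8666). Of 30 genes of the amino acid stress response 3 fell, Vldlr, Stc2 and Pycr1 (median -0.18, and -0.18 and -0.26 by array). Of 26 genes of pyrimidine metabolism Dpyd rose and 4 fell, among them the 5′-nucleotidases Nt5c (-1.22 ± 0.18, adjusted p = 0.0506) and Nt5e (-1.40 ± 0.26, adjusted p = 0.0749), with a median of -0.17 (-0.22 and -0.15 by array). Of 34 glycan-capping transferases 2 rose and 2 fell (median 0.05, and 0.06 and 0.04 by array), and St8sia6, a sialyltransferase, read 7.63 and 7.20 against 4.97 and 4.69 (-2.58 ± 0.24, adjusted p = 0.0249). Of 30 ribosome biogenesis genes 19 lay below and 1 above (all genes, 22.6% and 18.9%). Dkc1 was the 1 that fell, and the median was -0.27 (-0.31 and -0.16 by array). None of 34 targets of NRF2 passed the fold threshold (median 0.12, and 0.28 and -0.16 by array), and of 42 autophagy and lysosome genes 1 rose, Hexa, a lysosomal hexosaminidase, mainly in array 1 (7.26 and 7.61 against 9.09 and 7.94, list median 0.02, and 0.04 and -0.01 by array).

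The untreated tumors of both genotypes gave values that the irradiated comparison did not use for these differences, although both share the fit. Of the 609 genes that fell, 374 had the same order in the untreated tumors, with both miR-21-/- arrays below both miR-21+/+ arrays (all genes, 24.4%), and of the 307 that rose, 130 did (all genes, 27.7%). Mitosis genes were lower without miR-21 there as well, at a median of -1.27 against -1.16 in irradiated tumors, and the hypoxia list at -0.82 against -0.73. The interferon-stimulated genes had a median of 0.10 in untreated tumors against -0.75, and the macrophage genes -0.21 against 0.75. No member of these 4 lists passed the adjusted threshold in the test of the difference between irradiated and untreated tumors. In that test 1 gene of 23152 passed, and 1858 had an unadjusted p under 0.05.

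Several genes that separated the irradiated genotypes had the opposite order in untreated tumors, without passing that test. Meis1 read 7.64 and 7.23 in the untreated miR-21+/+ arrays and 5.61 and 5.83 in the untreated miR-21-/- arrays (adjusted p = 0.088 for the difference of differences). Its high group was thus miR-21+/+ without irradiation and miR-21-/- with it. Tspan8, a tetraspanin, read 8.41 and 8.36 against 4.40 and 6.67 in irradiated tumors and 4.78 and 5.50 against 7.26 and 7.35 in untreated tumors, and Ptgs2, lower in irradiated miR-21-/- tumors, read 6.95 and 6.13 against 7.53 and 7.75 in untreated ones. Defb7, Cd68, Atp2c2, Muc15 and S100b also changed order. B4galnt2, a glycosyltransferase, read 10.41 and 9.69 against 4.06 and 3.33 in untreated tumors, and was dim in irradiated tumors except for miR-21-/- array 2 (3.69 and 3.48 against 4.0 and 6.11). By contrast, C4b (2.55 in irradiated and 2.78 in untreated tumors), Slc2a1 (-1.96 and -1.84), Mlkl (-1.31 and -1.44), Fas (1.29 and 1.43), Tagln2 (-1.56 and -1.31) and Cldn1 (-2.67 and -2.06) had the same order and differences of like size in both.

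**Figure D5:**
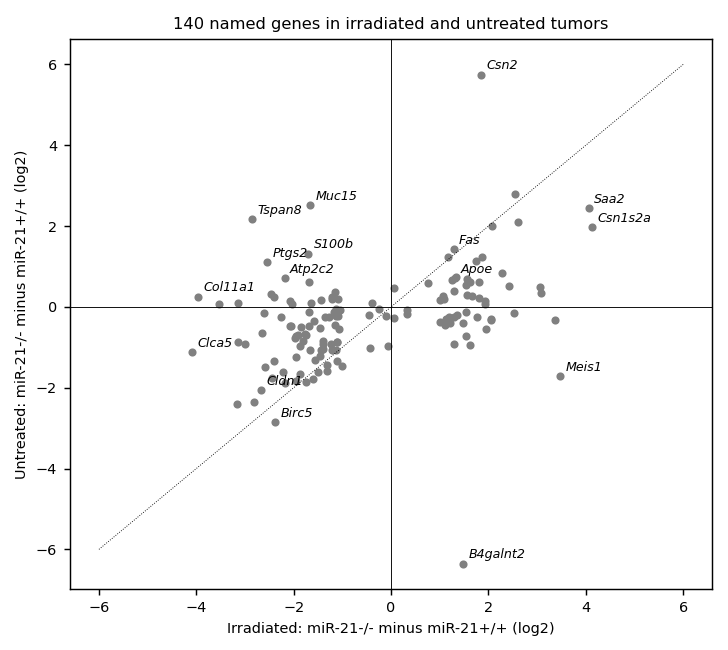
Log2 difference, miR-21-/- minus miR-21+/+, of the 140 named genes in irradiated tumors (x axis) and in untreated tumors (y axis), 2 arrays per group, with a dotted line where both are equal. Birc5 (-2.38 and -2.86) and Fas (1.29 and 1.43) lie near the line, whereas Meis1 (3.48 and -1.72) and B4galnt2 (1.47 and -6.35) lie in the lower right.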

How the data were processed

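RNA of 8 tumor samples was hybridized to Affymetrix mouse gene arrays. The deposited values are on the log2 scale, for exon-level probe sets, and the authors made them by RMA (background correction, quantile normalization and probe summary) in Affymetrix Expression Console 1.4; the labels name Transcriptome Analysis Console 3.1 for comparisons, whose output was not used. Of 269751 probe sets, 233753 are listed with 1 gene; 5139 with several and 30859 with no gene listed were left out, and the rest were averaged per gene (median 8 probe sets, 2319 genes with 1). Arrays have no read depth, so their number limits the precision. Genes were placed on RefSeq GRCm38.p6, a build not named in the array files, so no gene coordinates are given. Sequences and motif windows come from RefSeq tables of that build. Each printed stretch precedes a listed start site of its gene, which is not always the outermost, and other sites are not shown.

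All 8 arrays were fitted in limma 3.58.1 (R 4.3.3) with a mean per group (4 residual degrees of freedom, prior 3.54), the contrast was irradiated miR-21-/- minus irradiated miR-21+/+, and p-values were adjusted by Benjamini-Hochberg over 23152 genes. Tables and figures used Python 3.11.15, pandas 2.3.3, numpy 2.4.6 and matplotlib 3.10.9. The pipeline was tested on simulated data for this comparison (23152 genes). The adjusted threshold was passed by 19 of 100 genes changed by 1 log2 unit, 76 of 100 changed by 2 and 5 of 22952 unchanged genes. The fold threshold was passed by 47, 99 and 205. These rates describe the simulated data. Irradiated miR-21-/- array 1 stood apart from the other arrays, so the rates may differ for the tumors. Named genes are the 25 in each direction with the widest gap (mean level of at least 6 in the higher group, at least 2 probe sets, p under 0.05, no predicted or clone names), the 4 members per list with the widest gap among those past the fold threshold, and some fixed by name; members such as Krt8, Kif11, Ifit1, Pgk1, Mki67 and Esr1 were added after their values were seen. The genes, the 45 lists (1238 entries, 1192 measured) and the tests were chosen with earlier results of these data known. Alternatives varied the model, filter, scaling, probe set summary, array weights, replicate block, arrays and chromosome 11 genes; the crossed block, and all alternatives of the count of genes with non-overlapping genotypes and of the test of difference between treatments, were chosen after seeing the data.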

Additional observations from a re-analysis of the deposited data

Results flagged for a closer look

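Npy, which encodes neuropeptide Y and lies on chromosome 6, was the 1 gene of 23152 for which the test of the difference between irradiated and untreated tumors passed the adjusted threshold, and it was named after its values were seen. In irradiated tumors it read 8.10 and 7.70 in the miR-21+/+ arrays and 5.79 and 6.36 in the miR-21-/- arrays (-1.82 ± 0.24, adjusted p = 0.033). In untreated tumors it read 5.47 and 5.40 in the miR-21+/+ arrays and 8.30 and 8.46 in the miR-21-/- arrays (2.95, adjusted p = 0.0171). The difference between the 2 differences was -4.77 on the log2 scale (adjusted p = 0.0257, limma, 2 arrays per group), and both arrays of each group lay on the same side. Npy has 4 probe sets, of which 3 were lower and 1 higher in irradiated miR-21-/- tumors.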

How the results depend on the processing

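Against 94 genes at the adjusted threshold, 0 passed in limma on the 4 irradiated arrays, 0 without moderation of variances, 183 among genes above the median level, 13 with the median of the probe sets, 2 with the brightest, 13 with array weights and 52 without the distal end of chromosome 11. Leaving out 1 array gave 0 to 3709 (318 without miR-21-/- irradiated array 1, 3709 without array 2), fits in which the lone array of a group is assumed to vary like the others. Against 916 at the fold threshold, 271 passed without moderation, and 759 to 2740 with 1 array left out. The split was 279 higher and 480 lower without irradiated miR-21-/- array 1, and 1437 and 1303 without array 2. Genes with non-overlapping genotypes numbered 5273 above the median level, and 14722 to 18498 with 1 array left out, against 9607. These counts cannot show a dependence on processing. The first is over fewer genes, and with 1 array left out fewer arrays must be in order, so non-overlap is easier to reach. Genes at the adjusted threshold in the test of difference between treatments numbered 5 with a variance trend, 0 with the brightest probe set, 11 with array weights and 0 to 2523 with 1 array left out, against 1. Same-numbered arrays of the irradiated genotypes correlated at -0.133 in their deviations and other group combinations at -0.028 to 0.042, so the numbers were not taken to pair the arrays. A replicate block gave 0 genes at the adjusted and 937 at the fold threshold and 0 in the test of difference, and crossed numbers 0, 997 and 0. With the brightest probe set, Fam125b (-0.012), Brip1 (0.340), Tgfa (0.068) and Vmp1 (0.065) reversed. Of the 140 named genes, 4 were counted as reversed there and none under the other alternatives. Genes whose genotypes overlapped could change sign without being counted. Timp3, for one, read 7.03 and 7.01 in the irradiated miR-21+/+ arrays, 7.67 in miR-21-/- array 1 and 6.49 in array 2. In the simulated data, with 2 arrays per group, a log2 change of 1 seldom passed the adjusted threshold.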
